A study of Rattus norvegicus with 6 samples.

Results

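The 34 genes described here encode the glucose transporters, the glycolytic enzymes, the enzymes that steer pyruvate towards lactate or the mitochondrion, and well-known targets of the hypoxia-inducible factors. They were listed by name for these known roles, with no threshold on measured values, but with earlier results of these data known. Of the 34, 33 had a probe set that carries their symbol alone, and 29 were tested. Gapdh was measured by control probe sets only, Car9, Car12 and Adm fell short of the filter on low signal (a mean log2 signal of 8.33, the 40th percentile), and Pkm had no probe set of its own.

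RNA from RK3E cells, a line derived from rat kidney epithelium, was hybridised to Affymetrix rat arrays to ask how cells transformed by GLI1, a transcription factor of the Hedgehog pathway, differ from parental RK3E cells. For the GLI1 cells, RK3E cells were transfected with a GLI1 expression construct using Lipofectamine 2000, and foci of transformed cells were isolated singly and maintained. Each GLI1 line therefore goes back to 1 focus, and the labels give no array of cells that received an empty construct. There were 4 GLI1 arrays: 1 whose label names no clone (the unnamed-clone array), 1 of clone I, and clone II replicates 1 and 2. Values are given in that order throughout, and parental replicate 1 comes before parental replicate 2. Signals are MAS5 intensities in arbitrary units, and the difference between groups is on the log2 scale. The 2 control arrays came from parental RK3E cells, and all cells were grown in DMEM with serum. The labels call the arrays biological replicates without saying whether their cultures were grown separately, so a p-value here reflects the spread from array to array, which may be technical. Times in culture, cell density and oxygen level are not given in the labels.

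Glycolysis breaks glucose down to pyruvate in the cytosol. Lactate dehydrogenase then turns pyruvate into lactate, while the pyruvate dehydrogenase complex sends it into the citrate cycle and the pyruvate dehydrogenase kinases hold that complex back. When oxygen is low, prolyl hydroxylases no longer mark the HIF alpha subunits for destruction, and HIF dimers bind a short core sequence and raise many glycolytic genes together with genes for angiogenesis, mitophagy and pH control. High glycolysis in the presence of oxygen is a common trait of transformed cells.

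The probe set for Gli1 read between 3356.2 and 9091.7 on the GLI1 arrays and 36.0 and 90.8 on the parental arrays, so all 6 arrays followed their labels. Log2 signals correlated at 0.92 to 0.95 among GLI1 arrays and at 0.96 between the parental arrays. The ratio of the 3' to the 5' GAPDH control probe sets, a measure of RNA integrity and labelling, was 7.52 on clone II replicate 1 and 3.66 on parental replicate 1, and 1.39 to 2.09 on the other arrays. Among 8 markers of kidney and simple epithelium, Epcam and Krt8 passed the filter on low signal and Cdh1, Cdh16, Krt18, Krt19, Pax2 and Pax8 did not. The summed signal of the 6 fibroblast markers was 113427.6 and 126965.1 on the parental arrays and 3896.8 to 5712.4 on the GLI1 arrays. That difference moved with the GLI1 comparison, and its part in the results below was not tested. Endothelial, immune and erythroid markers summed to 986.8 or less in every array.

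In GLI1-transformed cells, 4 of the 29 tested members rose: Hk2, the hexokinase isoform that is induced in many tumours, Aldoc, an aldolase, Ldha, the lactate dehydrogenase subunit that favours lactate formation, and Pdk1, a pyruvate dehydrogenase kinase. Ndrg1, a stress-response gene, and Pfkfb3, which makes the activator of phosphofructokinase, fell. Folds for the rising genes ran from 2.43 for Ldha to 9.35 for Hk2, and Ndrg1 was 11.9-fold lower. A change was called in limma at a Benjamini-Hochberg adjusted p under 0.05 over 18625 probe sets, and "rose" and "fell" mean that. Of all tested probe sets, 5.84% rose and 7.25% fell, against 13.8% and 6.90% of the tested members. The median log2 difference was 0.55 over the tested members and 0.0047 over all tested probe sets. Among the 23 members that did not pass, 10 were higher and 0 lower at an unadjusted p under 0.05. With the called members that makes 14 higher and 2 lower, or 48.3% and 6.90% of the 29, against 14.2% and 14.7% of all tested probe sets. The members were chosen with earlier results known, so these and later shares describe the list and do not test it. In these bulk samples, fewer cells of a type and less RNA per cell cannot be told apart.

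With either parental array left out, 1 remained, and calls over all tested probe sets became fewer too. Without clone II replicate 2, 11.1% of all tested probe sets were called in either direction. The count of members that rose changed with the arrays used. It was 10 without clone II replicate 2, where 913 of all 18625 tested probe sets rose. It was lower without either parental array, as were the calls over all tested probe sets. The count of falls was 1 without clone I, without clone II replicate 2 or without either parental array, and Ndrg1 was then the member left. With the pair of arrays of highest GAPDH ratio left out, 0 members rose and 0 fell, and over all tested probe sets 158 rose and 168 fell. With arrays centred on their median, 9 members rose and 1 fell. That scaling took the members' median from 0.55 to 0.71 and that of every tested probe set from 0.0047 to 0.17, and it turned the split of all calls from 1087 rises and 1351 falls to 1454 and 944.

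The 4 GLI1 arrays all lay above both parental arrays for 14 of the 29 tested members, and all below for 2. Over all tested probe sets those shares were 19.0% and 20.2%, against 48.3% and 6.90% of the members. The other 13 members overlapped. The levels were graded among the GLI1 arrays, and the plot of signals by array shows the members given array by array.

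**Figure D1:**
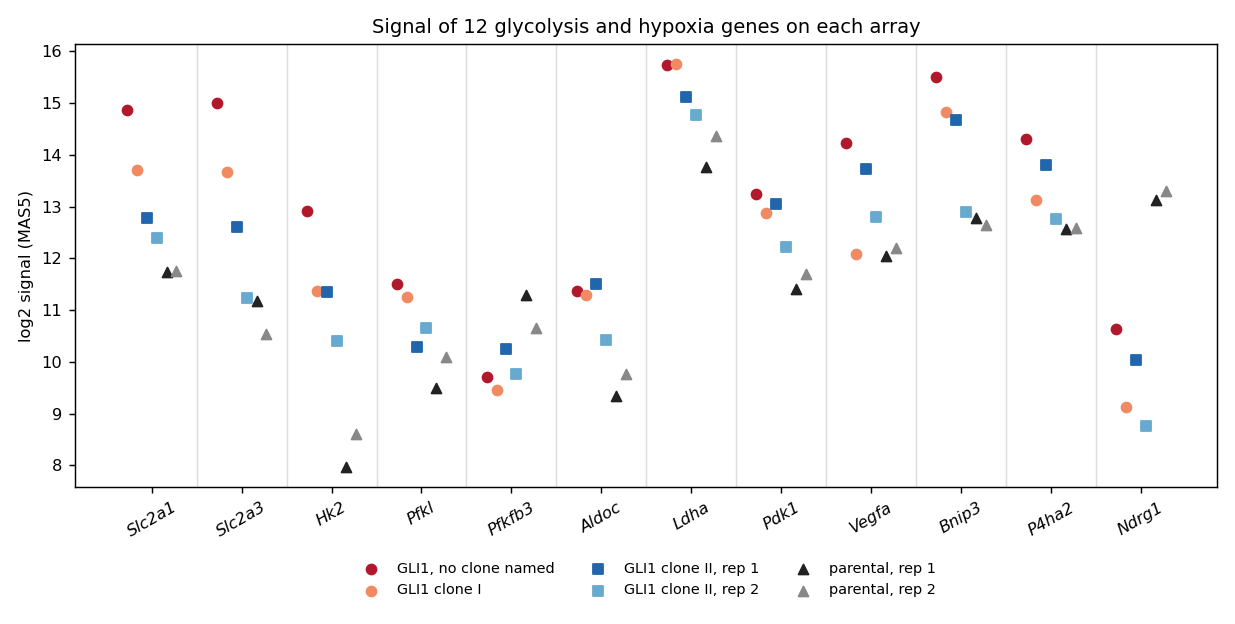
Log2 MAS5 signal of the 12 members given array by array, with each point 1 array and a colour and marker for each array. Vegfa and P4ha2 were added after their values were seen. Hk2, Aldoc, Ldha and Pdk1 lie higher on all 4 GLI1 arrays, Ndrg1 and Pfkfb3 lie lower, and the glucose transporters spread widely among the GLI1 arrays.

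The starts of the called genes are shown because HIF acts on such regions through a short core, and because the called genes differ in whether their start holds it. Sequences are RefSeq's for the GRCr8 assembly, from 250 bases before to 50 bases after each start, written 5' to 3' along the gene. Matches to ACGTG or GCGTG on either strand are in capitals; CACGTG holds ACGTG on both strands and counts as 2 matches. Hk2 is at chr4:116841226-116841525 on the minus strand, and no match was found. Pfkfb3 is at chr17:71944683-71944982, Aldoc at chr10:63715294-63715593, Ldha at chr1:106507842-106508141 and Pdk1 at chr3:77113264-77113563, all on the plus strand.
Hk2: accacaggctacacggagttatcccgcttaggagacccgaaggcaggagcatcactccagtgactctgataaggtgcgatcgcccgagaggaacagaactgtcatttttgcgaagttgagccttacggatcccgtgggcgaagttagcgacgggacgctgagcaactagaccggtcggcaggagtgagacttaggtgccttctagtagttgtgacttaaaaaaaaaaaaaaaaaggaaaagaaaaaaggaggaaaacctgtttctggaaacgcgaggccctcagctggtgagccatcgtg
Aldoc: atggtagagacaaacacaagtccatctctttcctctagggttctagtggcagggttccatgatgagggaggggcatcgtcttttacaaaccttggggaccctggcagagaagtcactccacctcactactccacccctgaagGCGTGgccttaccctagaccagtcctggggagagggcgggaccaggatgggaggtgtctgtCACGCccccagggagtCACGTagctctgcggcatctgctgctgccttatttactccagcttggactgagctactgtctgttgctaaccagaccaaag
Ldha: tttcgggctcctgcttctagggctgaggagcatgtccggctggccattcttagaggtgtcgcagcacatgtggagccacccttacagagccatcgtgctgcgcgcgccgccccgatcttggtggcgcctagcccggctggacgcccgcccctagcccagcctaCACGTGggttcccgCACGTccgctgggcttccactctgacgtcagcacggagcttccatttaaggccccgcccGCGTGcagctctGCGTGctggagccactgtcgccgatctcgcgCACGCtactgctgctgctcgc
Pdk1: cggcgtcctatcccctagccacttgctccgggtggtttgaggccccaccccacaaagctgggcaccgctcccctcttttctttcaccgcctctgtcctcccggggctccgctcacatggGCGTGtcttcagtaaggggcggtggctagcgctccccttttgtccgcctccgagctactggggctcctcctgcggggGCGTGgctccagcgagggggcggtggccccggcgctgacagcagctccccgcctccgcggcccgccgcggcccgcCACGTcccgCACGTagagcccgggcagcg
Pfkfb3: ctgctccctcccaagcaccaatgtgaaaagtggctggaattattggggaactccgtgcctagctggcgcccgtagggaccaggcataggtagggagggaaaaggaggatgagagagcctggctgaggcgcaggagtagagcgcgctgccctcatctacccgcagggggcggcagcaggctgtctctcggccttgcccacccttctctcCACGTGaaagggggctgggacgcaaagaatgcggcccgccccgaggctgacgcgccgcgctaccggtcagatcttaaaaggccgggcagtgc

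ACGTG was found in 18 of the 30 members with a RefSeq entry, or 60.0%, and in 19.7% of all 27457 promoters of that length. GCGTG was found in 17 members, or 56.7%, and in 31.1% of all promoters. Ldha held 3 matches to each core, Pdk1 held 2 of each, Aldoc held 1 ACGTG and 2 GCGTG, and Pfkfb3, which fell, held 2 ACGTG that overlap in 1 CACGTG. Either core was found in 22 of the 30 members, or 73.3%, and in 42.9% of all promoters. It was found in 3 of the 4 members that rose, in the 1 matched member that fell, and in 15 of the 20 with an entry that did not pass the test. Member promoters had a median GC content of 63.2% and all promoters 52.3%, and the part of GC content in these shares was not tested. The GLI consensus GACCACCCA was found on either strand in 0 of the 30 and in 0.379% of all promoters. At so low a share, 0 of 30 cannot set the members apart from other promoters. A match describes letters in this window only. Slc2a3, Pgk1, Bnip3l and Ndrg1 were not matched.

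Slc2a1 and Slc2a3 encode the facilitative glucose transporters GLUT1 and GLUT3. Slc2a1 read 29822.5, 13451.1, 6989.8 and 5377.0 across the GLI1 arrays, against 3429.5 and 3443.4 in parental cells. The groups did not overlap, and the unnamed-clone array stood highest. The log2 difference was 1.69 (SE 0.57), a 3.22-fold higher mean, with a limma adjusted p of 0.0867 that missed the threshold. Without the unnamed-clone array it was 0.0497, and without clone II replicate 2 it was 0.0408. Slc2a3 read 32646.0, 13096.1, 6271.8 and 2423.2 across the GLI1 arrays, against 2318.5 and 1495.2 in parental cells. It was in the same order, and clone II replicate 2 lay only just above parental replicate 1. Its log2 difference was 2.27 (SE 0.82), with a limma adjusted p of 0.105, and of 0.0204 without clone II replicate 2. A second, dimmer Slc2a3 probe set was below the filter and not tested. It read 633.7, 222.6, 65.9 and 122.1 against 257.2 and 265.1, a log2 difference of -0.51. A SD of 1.10 for Slc2a1 and 1.59 for Slc2a3 among GLI1 arrays (n = 4) on the log2 scale set the wide error.

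Hexokinase traps glucose in the cell as glucose 6-phosphate, and Hk2 was the member with the largest rise. Hk2 read 7678.3, 2660.9, 2625.6 and 1354.1 across the GLI1 arrays, against 250.3 and 389.1 in parental cells. Even the lowest GLI1 array was well above both parental arrays. The mean log2 signal was 11.51 ± 1.04 (SD, n = 4) against 8.29 ± 0.45 (SD, n = 2), a difference of 3.23 (SE 0.58, 95% interval 1.92 to 4.53, limma adjusted p = 0.00819). Without parental replicate 1 the adjusted p was 0.0995. Hk1, the housekeeping isoform, differed by -0.14 (adjusted p 0.751).

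Within each array the log2 ratio of Hk2 to Hk1 was 3.36 higher in GLI1 cells, and all 4 GLI1 arrays lay above both parental arrays. In an exact two-sided permutation test p was 0.0667, which is the smallest that 4 against 2 arrays can give, and 0.122 after adjustment over 11 pairs of isoforms. The design therefore cannot pass 0.05 for any ratio.

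Phosphofructokinase commits sugar to glycolysis, and its liver isoform Pfkl read 2897.1, 2441.2, 1243.1 and 1618.0 across the GLI1 arrays, against 718.7 and 1092.7 in parental cells. All GLI1 arrays were above both parental arrays, by a log2 difference of 1.13 (SE 0.37) that did not pass (adjusted p 0.079), and passed without clone II replicate 1 (0.0387). Pfkp and Pfkm, the platelet and muscle isoforms, differed by -0.18 (adjusted p 0.731) and -0.37 (0.458). The ratio of Pfkl to Pfkm was 1.50 higher on the log2 scale without overlap, and that of Pfkl to Pfkp 1.31 higher with overlap (exact permutation p 0.0667 and 0.2).

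Pfkfb3 makes fructose 2,6-bisphosphate, the activator of phosphofructokinase, and moved the other way. It read 831.5, 702.3, 1217.7 and 868.8 across the GLI1 arrays, against 2518.6 and 1607.7 in parental cells. Each GLI1 array was below both parental arrays. The log2 difference was -1.18 (SE 0.31, 95% interval -1.89 to -0.47, limma adjusted p = 0.0393). Of the 6 calls this one was lost under the most alternatives run. It was lost on centring the arrays on their median (adjusted p 0.0704), and on leaving out either parental array (0.329 without replicate 1 and 0.0854 without replicate 2), clone I (0.0878) or clone II replicate 2 (0.0679).

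Aldolase splits fructose 1,6-bisphosphate. Aldoc read 2640.2, 2506.4, 2898.8 and 1379.2 across the GLI1 arrays, against 649.7 and 866.3 in parental cells. The 3 GLI1 arrays other than clone II replicate 2 were close together and all 4 were above the parental arrays. The difference was 1.60 (SE 0.33, adjusted p = 0.0155, 3.02-fold), and without parental replicate 1 or 2 the adjusted p was 0.158 and 0.0687. Aldoa, the main isoform, differed by 0.68 (0.0923, and 0.026 without clone II replicate 2), and the ratio of Aldoc to Aldoa was 0.92 higher on the log2 scale (exact permutation p 0.0667). Gpi, the isomerase of the second step, and Tpi1, the triose phosphate isomerase, differed by 0.16 (adjusted p 0.736) and 0.87 (0.136).

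Of the 4 tested members of the lower, energy-yielding steps, 0 passed in limma, with 2 at an unadjusted p under 0.05, both higher in GLI1 cells. Pgk1, the phosphoglycerate kinase, differed by 0.55 (limma adjusted p 0.127) and Pgam1, the mutase, by 0.41 (0.203). The enolases Eno1 and Eno2 differed by 0.59 (0.269) and 0.90 (0.0899). All 4 estimates were positive, and without clone II replicate 2 Pgk1 (0.0254) and Eno2 (0.0138) passed. Gapdh, measured with the 3' control probe set and not tested, had a mean log2 signal of 16.31 ± 0.09 (SD, n = 4) against 15.59 ± 0.52 (SD, n = 2). Its signal was 38148.3 on parental replicate 1 and 63726.6 on replicate 2, and 76352.8 to 86704.8 on the GLI1 arrays. The 5' probe set read 10152.0 on clone II replicate 1 and 10424.8 on parental replicate 1, and 40385.2 to 59858.5 on the other 4 arrays, so the groups overlapped there.

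At the pyruvate branch, Ldha read 54283.9, 55217.4, 35723.3 and 28032.0 across the GLI1 arrays, against 13906.6 and 21047.3 in parental cells. The unnamed-clone and clone I arrays were nearly equal, and clone II lay between them and the parental arrays. Ldha rose by 1.28 on the log2 scale (SE 0.30, 95% interval 0.60 to 1.97, adjusted p = 0.0254). Ldhb, whose subunit favours the reverse reaction, differed by -0.13 (0.731), and the ratio of Ldha to Ldhb was 1.41 higher (exact permutation p 0.0667). Without clone I the adjusted p of Ldha was 0.061, without parental replicate 1 or 2 it was 0.238 and 0.0655, and with no intensity trend it was 0.0605.

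Pdk1 phosphorylates and so inhibits pyruvate dehydrogenase. It read 9754.5, 7561.9, 8504.6 and 4743.5 across the GLI1 arrays, against 2724.9 and 3318.4 in parental cells. Clone II replicate 2 was the lowest GLI1 array and still above the parental arrays. It rose by 1.30 (SE 0.28, 95% interval 0.65 to 1.94, adjusted p = 0.0193). A second, dimmer Pdk1 probe set differed by -0.06 (adjusted p 0.932), so the 2 probe sets disagree. Without parental replicate 1 or 2 the adjusted p of the brighter one was 0.177 and 0.0869. Pdk3 differed by -0.24 (adjusted p 0.566).

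Oxygen-sensing and pH genes did not pass. Egln1 and Egln3, the prolyl hydroxylases PHD2 and PHD3 that HIF itself induces, differed by 0.55 (adjusted p 0.117) and -0.03 (0.981). Car9 and Car12, membrane carbonic anhydrases, were below the filter on low signal: Car9 read 29.9 to 398.9 on the GLI1 arrays and 347.4 and 773.3 on the parental arrays, and Car12 at most 134.4 and 17.4 and 167.9. Adm, which encodes the peptide adrenomedullin, was also below it, at 43.1 to 331.5 against 261.9 and 266.1.

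Vegfa, the angiogenic growth factor, and P4ha2, a subunit of the collagen prolyl hydroxylase, fall outside the rule for array values and were added after their values were seen. Vegfa read 19270.3, 4320.0, 13528.3 and 7149.6 across the GLI1 arrays, against 4225.9 and 4731.6 in parental cells. Clone I lay among the parental arrays. The difference was 1.08 (SE 0.51, adjusted p 0.196). P4ha2 read 20321.3, 8941.7, 14380.7 and 6980.0 across the GLI1 arrays, against 6076.9 and 6148.7 in parental cells. All 4 GLI1 arrays were higher, and clone II replicate 2 was nearest to the parental level. The difference was 0.93 (adjusted p 0.142). P4ha1, the paralogous subunit, differed by -0.20 (0.773).

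Bnip3 encodes a receptor for mitophagy. It read 46534.8, 29239.2, 26254.5 and 7627.3 across the GLI1 arrays, against 7015.1 and 6372.0 in parental cells. All GLI1 arrays were above, but clone II replicate 2 was close to the parental level. The log2 difference was 1.77 (SE 0.58), with an adjusted p of 0.0764. Without clone II replicate 2 it was 0.00193. Bnip3l, its paralog, and Higd1a, a mitochondrial inner membrane gene, differed by 0.16 (adjusted p 0.616) and -0.05 (0.936).

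Ndrg1, a widely used hypoxia marker, had the largest change of any member and went down. It read 1591.3, 562.7, 1048.7 and 436.4 across the GLI1 arrays, against 8923.7 and 10073.5 in parental cells. The mean log2 signal was 9.64 ± 0.85 (SD, n = 4) against 13.21 ± 0.12 (SD, n = 2), a difference of -3.57 (SE 0.47, 95% interval -4.63 to -2.50, limma adjusted p = 0.00205). It passed without each array in turn, and had an adjusted p of 0.052 without both arrays of highest GAPDH ratio. Ndrg1 thus fell in the same cells in which Hk2, Ldha and Pdk1 rose.

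**Figure D2:**
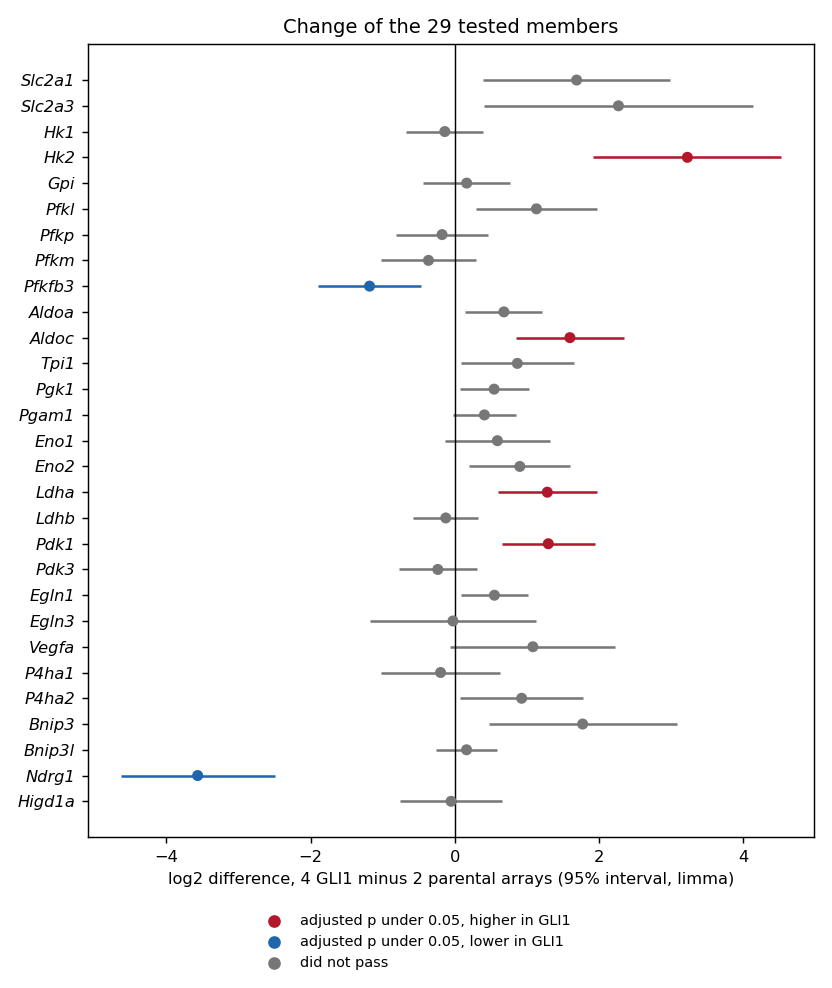
Log2 difference of each tested member between GLI1 and parental cells, with its 95% interval from limma, ordered by role, with called members marked. Hk2 at 3.23 and Ndrg1 at -3.57 are the extremes, and the intervals of the glucose transporters and Bnip3 lie above 0 without a call after adjustment.

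Of the 29 tested members, 15 were highest on the unnamed-clone array (51.7%, against 34.5% of all tested probe sets) and 16 were lowest, among the 4 GLI1 arrays, on clone II replicate 2 (55.2%, against 24.3%). Members over 2-fold above the parental mean numbered 13 on the unnamed-clone array, 10 on clone I, 10 on clone II replicate 1 and 1 on clone II replicate 2, where Hk2 was the 1. The shares of all tested probe sets past that fold were 8.87%, 7.58%, 6.39% and 5.52%. The median difference from the parental mean was 0.83, 0.55, 0.49 and 0.17 in the same order. The Gli1 signal was 9091.7, 3356.2, 3500.4 and 4610.6 in the same order, so it was highest on the unnamed-clone array and lowest on clone I. The part of Gli1 level in the order of the arrays was not tested.

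**Figure D3:**
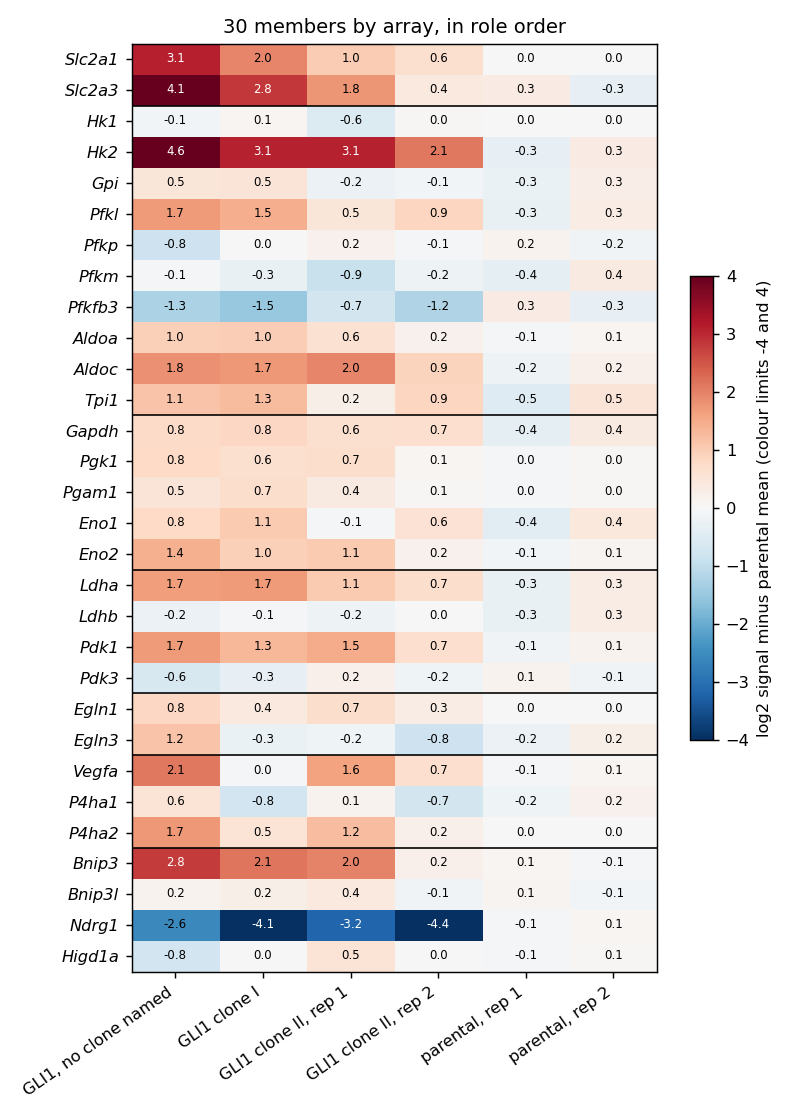
Heat map of the log2 signal of each member minus its mean over the parental arrays, for the 6 arrays, with members by role; Gapdh is from its 3' control probe set. The unnamed-clone array has the most members over 2-fold above the parental mean (13) and clone II replicate 2 the fewest (1), while Ndrg1 is low on all 4 GLI1 arrays.

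The 2 clone II arrays carry the same clone name and differed from each other. Clone II replicate 1 was above replicate 2 for 22 of the 29 members (75.9%, against 52.1% of all tested probe sets), and by over 2-fold for 5 (3.06% of all tested probe sets). Slc2a3 and Bnip3 were among these, at 6271.8 against 2423.2 and 26254.5 against 7627.3. The GAPDH 3' to 5' ratio was 7.52 on replicate 1 and 1.39 on replicate 2, and its part in this difference was not tested. Parental replicate 1, with a ratio of 3.66, was above replicate 2 for 7 members (24.1%, against 48.6%), and for 0 by over 2-fold.

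A model with clone II, the other 2 GLI1 arrays and the parental arrays as 3 levels gave the contrasts apart; those with the parental level share its 2 arrays. In the other GLI1 arrays against parental, 10 members rose and 2 fell, 41.4% of the tested members, where 12.4% of all tested probe sets were called (5.57% rose and 6.83% fell). Fewer members were called without the unnamed-clone array or without either parental array, each a fit with 1 array left in a group. Calls over all tested probe sets became fewer in these fits too, but least so without the unnamed-clone array. Besides the 4 that rose above, the members that rose with all arrays were Slc2a1 (2.54, limma adjusted p 0.00316), Slc2a3 (3.47, 0.00474), Pfkl (1.59, 0.0149), Bnip3 (2.46, 0.0161), Aldoa (0.97, 0.0186) and Eno2 (1.19, 0.0414). Pfkfb3 and Ndrg1 fell there too. In clone II against parental, Hk2 rose by 2.60 (adjusted p 0.0212) and Ndrg1 fell by 3.81 (0.00424), 6.90% of the tested members where 9.73% of all tested probe sets were called (3.99% rose and 5.74% fell). More members were called without clone II replicate 2, and fewer without clone II replicate 1 or either parental array. Over all tested probe sets calls became fewer in each of these fits, which also left 1 array in a group. With all arrays, clone II differed from parental by 0.84 for Slc2a1 (limma adjusted p 0.179), 1.07 for Slc2a3 (0.253) and 0.89 for Ldha (0.055).

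Clone II was also set directly against the other GLI1 arrays, and 0 of the 29 members passed in limma. At an unadjusted p under 0.05, 8 members (27.6%) were lower and 0 higher. At that threshold 5.01% of all tested probe sets were lower and 3.64% higher. Of all tested probe sets 0.129% passed (0.0161% rose and 0.113% fell). Slc2a1 was lower by a log2 difference of -1.71 (adjusted p 0.159), Slc2a3 by -2.41 (0.178), Bnip3 by -1.38 (0.478) and Ldha by -0.79 (0.372). Without the clone I array Slc2a1 passed, at an adjusted p of 0.0238. The 2 levels also differed in Krt8, a keratin, which was lower in clone II than in the other GLI1 arrays. Its log2 difference was -3.17 (limma adjusted p 0.0157). Of the 4 tested fibroblast markers, 1 passed in this contrast too. The summed signal of the epithelial markers was 7695.1 and 9077.3 on the unnamed-clone and clone I arrays, against 1906.6 and 1585.3 for clone II. It was 2319.9 and 2593.3 on the parental arrays, nearer to clone II. The part of this signal in the members' levels was not tested.

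**Figure D4:**
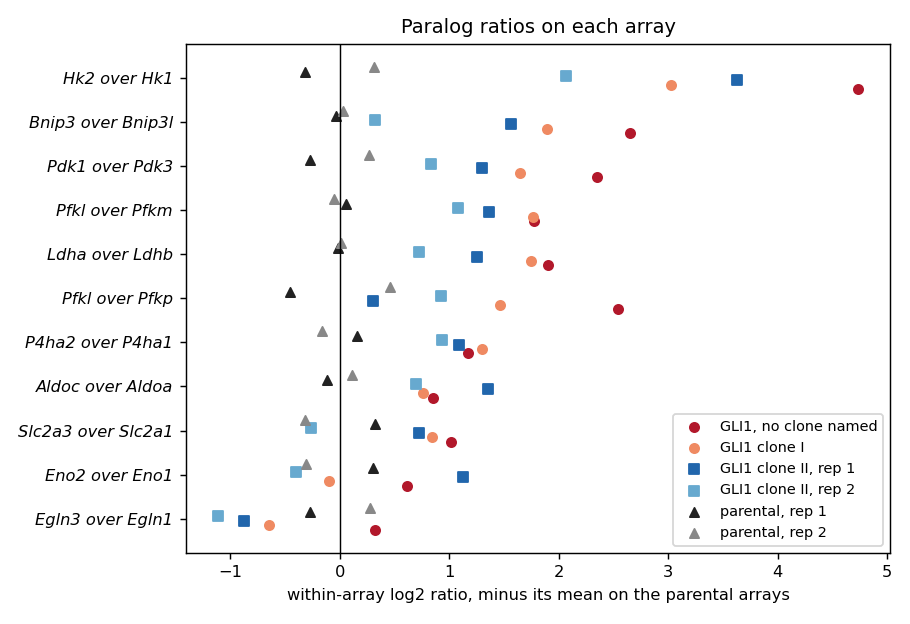
Within-array log2 ratio of 11 pairs of isoforms or paralogs, relative to the parental mean, with each point 1 array. Hk2 over Hk1 stands highest, at 2.07 to 4.74 on the GLI1 arrays, and the Slc2a3 over Slc2a1, Pfkl over Pfkp, Eno2 over Eno1 and Egln3 over Egln1 ratios overlap between the groups.

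Genes of the same pathways outside the list were counted in the same limma fit, in which 13.1% of all tested probe sets were called. Of 8 tested subunits and regulators of HIF, Arnt2, a HIF partner, fell by 2.32 (adjusted p 0.0015), Cited2, which competes with HIF for its coactivator, fell by 1.56 (0.0076) and 0 rose, so 25.0% were called. Hif1a differed by -0.41 (0.125) and Epas1, which encodes HIF-2 alpha, by -0.74 (0.182). Of 23 other hypoxia-inducible genes, Plod1, a lysyl hydroxylase, rose by 1.97 (0.0022), Errfi1, a feedback inhibitor of the EGF receptor, fell by 2.15 (0.0048), and Gbe1, the glycogen branching enzyme, fell by 0.83 (0.0255). The other 20 did not pass. The median over these 23 was 0.07, and the share called was 13.0%, near that of all tested probe sets.

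The lactate carrier gene Slc16a1, which encodes MCT1, rose by 0.96 (adjusted p 0.0165), 1 of 6 tested carriers (16.7%). In the pyruvate dehydrogenase complex and citrate cycle, Pdhx, a component of the complex, rose by 0.78 (0.0441), and Pdk4, another inhibiting kinase, fell by 2.23 (0.0149), and 24 of 26 did not pass (7.69% called). Of 11 tissue isoforms and side enzymes Bpgm, which makes 2,3-bisphosphoglycerate, fell by 0.82 (0.0366), 9.09% of that list. Of the 9 pentose phosphate genes 0 passed in limma, with 1 higher at an unadjusted p under 0.05, and of 2 gluconeogenesis genes 0 passed, with 0 at an unadjusted p under 0.05. The alternatives for these genes were chosen after seeing the data. Without parental replicate 1 the adjusted p was 0.0762 for Cited2, 0.0563 for Errfi1, 0.0667 for Slc16a1, 0.18 for Gbe1, 0.158 for Bpgm, 0.2 for Pdhx and 0.19 for Pdk4. Without parental replicate 2 it was 0.0769 for Cited2, 0.0597 for Errfi1, 0.149 for Slc16a1, 0.145 for Gbe1, 0.224 for Bpgm and 0.22 for Pdhx. Without clone I it was 0.0649 for Gbe1 and 0.0824 for Pdhx, without clone II replicate 1 0.054 for Bpgm and 0.0856 for Pdhx, and without clone II replicate 2 0.0644 and 0.0865. Median centring gave 0.105 for Gbe1 and 0.141 for Bpgm. With no intensity trend Gbe1 had 0.051, Bpgm 0.0709 and Pdhx 0.0707, and with no filter on low signal Pdhx had 0.0532. Arnt2 and Plod1 passed without each array in turn. Without both arrays of highest GAPDH ratio Plod1 passed (0.0352), while Arnt2 (0.0626), Cited2 (0.0597), Errfi1 (0.0993), Slc16a1 (0.119), Gbe1 (0.188), Bpgm (0.219), Pdhx (0.299) and Pdk4 (0.201) did not.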

How the data were processed

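The authors deposited a linear MAS5 intensity for every probe set on each array, as the submitters' processing notes name that tool. Its version and the genome build are not given in the sources used here. Values below 1 were set to 1, log2 was taken, and 57 control probe sets were left out. The test covered 18625 of 31042 probe sets, those whose average over the 6 arrays exceeded the 40th percentile of averages. Groups were compared with limma (version 3.58.1, R 4.3.3; lmFit, then eBayes with an intensity trend), two-sided, and p-values were adjusted by Benjamini-Hochberg across the 18625. The GLI1 against parental fit had 4 residual degrees of freedom and the 3-level fit 3, and the number of arrays limits the precision. In simulated data the fit recovered 17.4% of 2-fold and 62.8% of 4-fold changes, so a member that did not pass may still have changed. Probe sets with several symbols named no gene, and the brightest probe set stood for each gene. Exact permutation tests over the 15 arrangements of 6 arrays served the isoform ratios. Array values were given for called members and for uncalled members whose groups did not overlap and differed by at least 1 on the log2 scale; from the other lists the called genes of smallest adjusted p were named. The members and lists were chosen with earlier results of these data known. Alternatives to scaling, filter, trend, probe set and arrays were run. SE is of a log2 difference and SD is between arrays.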

Additional observations from a re-analysis of the deposited data

How the results depend on the processing

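The members that rose in GLI1 against parental numbered 4, and 0 to 10 when 1 array was left out; those that fell numbered 2, and 1 to 2. Calls for clone II against parental numbered 2 (1 to 5), for the other GLI1 arrays against parental 12 (4 to 12), and for clone II set against those arrays 0 (0 to 1). Centring the arrays on their median gave 9 rises, 1 fall and 5 clone II calls. Over all tested probe sets 12.9% were then called for GLI1 and 9.86% for clone II, each against parental. Quantile normalization and no filter each gave 1 fall, with 13.8% and 7.25% of all tested probe sets called. No intensity trend gave 1 clone II call, with 6.16% called. Leaving out the arrays of highest GAPDH ratio made calls against parental fewer, for members and for all tested probe sets. This leaves 3 GLI1 arrays and 1 parental array, which is assumed to vary like the others. The cause of the other changes was not tested. With the replicate number as a block, clone II against parental had 6 calls, with 13.6% of all tested probe sets called. Clone II against the unnamed-clone and clone I arrays then had 2, Slc2a1 (limma adjusted p 0.0397) and Slc2a3 (0.0112), with 0.478% called. Differences between replicates 1 and 2, with the unnamed-clone and clone I arrays taken as 1 and 2, correlated between groups at 0.10, 0.07 and 0.32. All were positive, but not every correlation passed 0.1 and the numbers were not taken as pairs.

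The sign of some differences changed. In GLI1 against parental, median centring gave Hk1 0.022, Ldhb 0.035, Egln3 0.13 and Higd1a 0.11, quantile normalization gave Egln3 0.15, and the second probe set gave Pdk1, a called rise of 1.30, -0.056. Leaving out 1 array gave -0.21 to 0.00032 for Hk1, -0.089 to 0.42 for Gpi, -0.33 to 0.043 for Pfkp, -0.41 to 0.16 for Ldhb, -0.42 to 0.24 for Egln3 and -0.25 to 0.19 for Higd1a. In clone II against the other GLI1 arrays, median centring gave Egln1 0.019 and Bnip3l 0.074. Without the arrays of highest GAPDH ratio, Hk1 was 0.069 and Vegfa -0.35. Leaving out 1 array gave -0.53 to 0.069 for Hk1, -0.90 to 0.17 for Aldoc, -0.043 to 0.14 for Ldhb, -0.34 to 0.11 for Egln1, -0.97 to 1.19 for Vegfa, -0.86 to 0.46 for P4ha1, -1.02 to 0.16 for P4ha2, -0.33 to 0.21 for Bnip3l and -1.23 to 0.27 for Ndrg1.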

Other observations

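Several hypoxia-inducible genes outside the list differed widely among the GLI1 arrays without passing the test; they were chosen after their values were seen. Ddit4, an inhibitor of mTOR signalling, was 3.19 above the parental mean on the log2 scale in the unnamed-clone array, 1.19 in clone I, and 2.16 and 0.36 in clone II (limma adjusted p 0.112 for the 4 arrays). Ankrd37 was 2.40, 0.17, 1.11 and -0.42 from the parental mean in that order of arrays, and Bhlhe41, a circadian repressor, 2.30, 0.98, 1.08 and -0.70. Angptl4, which encodes an inhibitor of lipoprotein lipase, was 2.49 on the unnamed-clone array and between -1.19 and -0.06 on the others. In these 4 chosen genes the unnamed-clone array was highest and clone II replicate 2 lowest, an order that other genes of the list did not all share. In Bhlhe40 and Kdm3a clone I was lowest, at -2.18 and 0.13, against -2.03 and 0.26 on clone II replicate 2. Vldlr, a lipoprotein receptor, was below the parental mean on all 4 GLI1 arrays, at -0.14, -2.36, -0.89 and -2.13.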
